A study of Mus musculus with 5 samples.

Results

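Runx3-bound regions at unmarked one-way gene promoters were 1341 of the 9135 Runx3-bound regions (14.7%) found by ChIP-seq in IL-2-activated splenic CD8-TC (CD8+ T cells). A region belonged here when its centre lay under 1 kb from the start of a protein-coding gene (GENCODE vM1, mm9), when it shared 0 bp with the 18992 H3K4me1-marked regions of the same cells, and when all protein-coding gene starts within 1 kb of its centre were read in one direction. Of the 1779 Runx3-bound regions under 1 kb from such a start, 1341 (75.4%) met these conditions. The others were 229 unmarked regions with starts on both strands (bidirectional promoters) and 209 regions that touched H3K4me1 (marked promoters).

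The cells were CD8-TC isolated from spleens of ICR mice by positive selection on anti-CD8 beads, TCR-activated for 2 days with plate-bound anti-CD3e and soluble anti-CD28, and then kept in 100 u/ml IL-2 for 4 days. All 5 libraries came from this condition and were 2 precipitations with polyclonal anti-Runx3 serum, 2 with non-immune serum (NIS) and 1 with monoclonal anti-H3K4me1, although the protocol speaks of replicate experiments for both antibodies. Peaks were called once per antibody on joined reads, and the lists hold positions without heights or read numbers. The depth behind a region is therefore unknown, no value has a replicate error, and tests concern the regions as called, not the variation between mice. Intervals (95%, Wilson) cover counting error only.

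Runx3 is a DNA-binding protein of the RUNX family that, with its partner Cbfb, binds short sites with the consensus TGTGGT or TGCGGT and shapes the identity and growth of cytotoxic T cells. H3K4me1 is a histone mark common at enhancers and at the borders of active promoters, whereas the nucleosomes next to an active start usually carry more methyl groups on the same lysine. Many promoters of genes used by all cells lie in CpG islands, stretches rich in CG dinucleotides that hold sites for Sp1 and ETS proteins, and a one-way promoter drives 1 protein-coding gene or several in the same direction.

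The sequences below show what the motifs look like in members. Each is a 100 bp stretch of a Runx3-bound region, outside annotated exons, from mm9 in the direction of the gene, with RUNX motifs (TGTGGT or TGCGGT, or either of them ending in C, on either strand) and the ETS motif CCGGAA (either strand) in capitals. In the 300 bp window from 250 bp before to 50 bp after the starts of all 22350 protein-coding genes on the autosomes and X, TGTGGT was present in 15.2%, TGTGGC in 18.2%, TGCGGT in 7.06%, TGCGGC in 14.4% and CCGGAA in 17.5%. Words of different motifs may share bases, and a match is a description and not a measured binding site. Some printed motifs lie outside the central 200 bp of their region, where regions are compared below, and do not count there. The central windows of Il2rg and Etv6 held 0 RUNX motifs, and those of Etv6, Eif3g and Nfkb2 held 0 CCGGAA. That of Rpl37 held 0 TGCGGT and 0 TGCGGC, and those of Nkg7 and Runx3 held 0 TGTGGT.

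The first set is from genes of cytotoxic function, homing, cytokine signalling and transcription in T cells, and was picked to show the TG variants. The stretches were Nkg7 (chr7:50692128-50692227, + strand), Ccr7 (chr11:99016434-99016533, - strand), Il2rg (chrX:98463722-98463821, - strand) and Runx3 itself (chr4:134675945-134676044, + strand).
Nkg7: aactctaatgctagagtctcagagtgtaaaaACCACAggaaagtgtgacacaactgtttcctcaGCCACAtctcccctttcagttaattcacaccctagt
Ccr7: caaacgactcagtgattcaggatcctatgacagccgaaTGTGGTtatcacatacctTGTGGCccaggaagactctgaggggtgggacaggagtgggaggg
Il2rg: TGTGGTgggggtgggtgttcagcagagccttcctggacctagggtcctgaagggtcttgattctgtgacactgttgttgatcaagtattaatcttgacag
Runx3: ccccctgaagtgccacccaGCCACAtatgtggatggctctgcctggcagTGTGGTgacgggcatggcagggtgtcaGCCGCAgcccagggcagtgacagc

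The second set is from genes of translation, division, vesicle transport and transcription, and was picked because a RUNX motif with CG and CCGGAA stand in the same stretch, which most stretches of the same lists do not show. The stretches were Rpl37 (chr15:5066381-5066480, + strand), Mrpl17 (chr7:112959739-112959838, - strand), Eif3g (chr9:20703071-20703170, - strand), Kif11 (chr19:37450450-37450549, + strand), Incenp (chr19:9974115-9974214, - strand), Sec31a (chr5:100845267-100845366, - strand), Etv6 (chr6:133985303-133985402, + strand) and Nfkb2 (chr19:46378710-46378809, + strand).
Rpl37: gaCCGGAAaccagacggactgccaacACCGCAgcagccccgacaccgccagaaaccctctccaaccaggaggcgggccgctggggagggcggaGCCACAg
Mrpl17: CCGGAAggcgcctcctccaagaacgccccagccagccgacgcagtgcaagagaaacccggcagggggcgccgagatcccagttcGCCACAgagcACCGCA
Eif3g: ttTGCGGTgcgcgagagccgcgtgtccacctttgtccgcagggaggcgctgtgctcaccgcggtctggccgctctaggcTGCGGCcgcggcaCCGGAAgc
Kif11: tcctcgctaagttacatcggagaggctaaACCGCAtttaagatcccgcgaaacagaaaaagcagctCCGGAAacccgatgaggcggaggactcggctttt
Incenp: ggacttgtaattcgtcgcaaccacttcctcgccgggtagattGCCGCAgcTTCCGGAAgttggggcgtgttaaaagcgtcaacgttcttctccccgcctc
Sec31a: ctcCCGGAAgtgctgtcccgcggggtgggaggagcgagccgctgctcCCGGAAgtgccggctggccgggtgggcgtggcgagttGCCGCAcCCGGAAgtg
Etv6: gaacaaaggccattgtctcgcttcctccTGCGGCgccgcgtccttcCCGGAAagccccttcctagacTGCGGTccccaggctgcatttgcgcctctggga
Nfkb2: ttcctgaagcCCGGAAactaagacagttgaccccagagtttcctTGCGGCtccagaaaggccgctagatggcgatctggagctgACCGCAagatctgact

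The third set is from members with the most RUNX motifs near the centre, Mtap7d1 (chr4:125933702-125933801, - strand) and Slmo2 (chr2:174298739-174298838, - strand).
Mtap7d1: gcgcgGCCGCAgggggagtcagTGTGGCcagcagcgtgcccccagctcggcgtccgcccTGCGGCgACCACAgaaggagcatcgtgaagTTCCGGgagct
Slmo2: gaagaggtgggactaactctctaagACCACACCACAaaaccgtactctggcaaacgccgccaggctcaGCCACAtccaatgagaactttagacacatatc

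The members belonged to 1320 genes, and 36 of these genes had more than 1 member. A single gene start lay within 1 kb in 1326 regions, and 15 regions had 2 starts in the same direction. The regions had a median width of 542 bp (quartiles 440 and 645 bp, range 177 to 1462 bp), close to the 521 bp of all Runx3-bound regions. The centre fell between genes in 644 members (48.0%), in a UTR in 346 (25.8%), in an intron in 225 (16.8%), in a coding exon in 80 (5.97%) and in an exon of a non-coding transcript in 46 (3.43%). On autosomes, between 3.94% (chromosome 14) and 8.24% (chromosome 5) of one-way gene starts had a member, and on the X chromosome 17 of 877 did (1.94%). At the limits of the rule, the member of Polr3e, a subunit of RNA polymerase III, was centred 998 bp from the start, and a region 1001 bp from 1700012B15Rik stayed outside. The member of Timm22, of an import complex of the mitochondrial inner membrane, ended 8 bp from H3K4me1, whereas a region at Slc39a13 stayed outside with 11 bp shared.

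The first comparison asked where along the promoter Runx3 lay. The offset of the centre from the gene start, positive in the direction of transcription, had a median of -18.5 bp with quartiles of -129.5 and 135.5 bp. The centre was upstream of the start in 724 members and downstream in 617, so that 46.0% (interval 43.4 to 48.7%) were downstream (two-sided exact binomial test, adjusted p = 0.0106 over 8 tests of position and orientation). Within 200 bp of the start lay 61.7% of the members, more than the 47.8% of marked promoters (Fisher's exact test, adjusted p = 0.000433 over the 9 tests of context). Of bidirectional promoters, which had starts on both strands to lie near, 83.4% did so, more than of members (adjusted exact p = 1.21e-10). The distance from the start entered the rule as a limit of 1 kb, so both comparisons are given as a description. The difference from marked promoters was lost when the limit of the rule was set at 500 bp (adjusted exact p = 0.129).

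**Figure D1:**
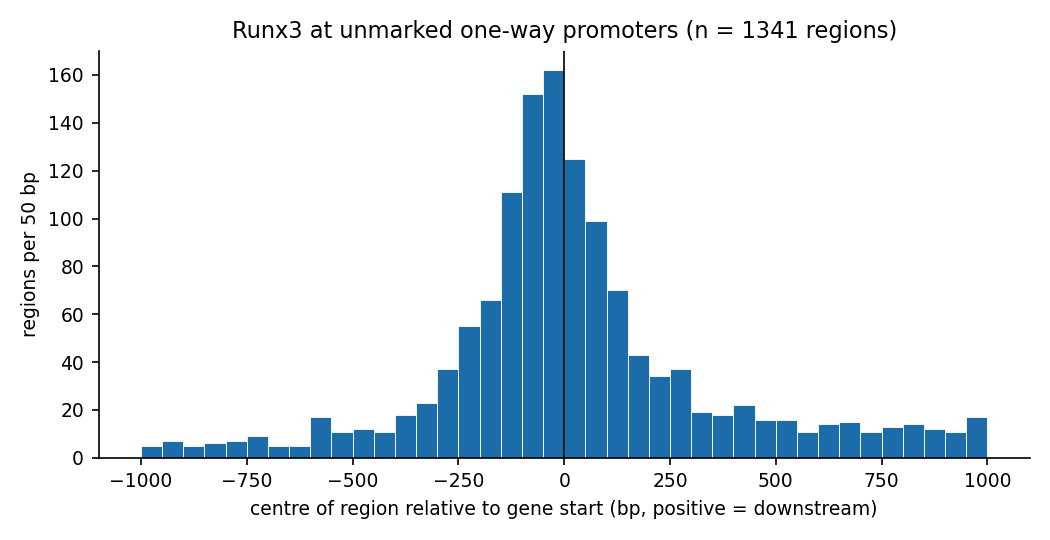
Number of unmarked one-way Runx3-bound regions (vertical axis, regions per 50 bp) by the offset of their centre from the gene start in bp (horizontal axis, positive downstream). The 1341 regions pile up at the start, with 724 centres upstream and 617 downstream.

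Members differed from marked promoters in their surroundings. The central 200 bp was CpG-rich (observed/expected CpG of at least 0.6 and GC of at least 55%) in 942 members (70.2%), compared to 58 of 209 marked promoters (27.8%, Fisher's exact test, adjusted p = 2.59e-30) and 187 of 229 bidirectional promoters (81.7%, adjusted p = 0.000585). Another Runx3 centre lay within 10 kb of 312 members (23.3%) and of 81 marked promoters (38.8%, adjusted exact p = 1.46e-05), while the 48 of 229 bidirectional promoters did not pass this test (adjusted p = 0.558). A width of at least 521 bp was found in 737 members and in 65.1% of marked promoters (adjusted exact p = 0.0103). Since 1 bp shared with H3K4me1 made a region marked, a wider region was marked more easily. The test therefore cannot separate width from the rule. The share of members with an annotated start of another transcript on the opposite strand within 1 kb was 10.2% (137 regions, of which 117 were starts of non-coding genes), compared to 4.95% of the 202 marked promoters with protein-coding starts on one strand (adjusted exact p = 0.0187). Both features entered the rule, so it is given only as a description that 14.6% of unmarked and 3.35% of marked promoters had protein-coding starts on both strands.

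RUNX motifs of members carried CG more often than those of marked promoters. In the central 200 bp, TGCGGT was present in 367 of 1341 members (27.4%) and TGCGGC in 340 (25.4%, interval 23.1 to 27.8%), whereas TGTGGT was present in 305 (22.7%, interval 20.6 to 25.1%) and TGTGGC in 249 (18.6%). Of marked promoters, 14.4% held TGCGGT (Fisher's exact test, adjusted p = 0.000268 over 28 motif tests), 12.9% held TGCGGC (adjusted p = 0.000284) and 43.1% held TGTGGT (adjusted p = 6.18e-08). Compared to bidirectional promoters, TGTGGT was higher in members (22.7% compared to 13.5%, adjusted exact p = 0.00497), a call lost with a 100 bp window (adjusted p = 0.128), and the shares of TGCGGT were 27.4% and 26.2%. With that window the difference of TGCGGC from marked promoters was 4.3 points and no longer passed (exact test, adjusted p = 0.311). Any RUNX motif was present in 71.5% of members, 63.8% of bidirectional (adjusted exact p = 0.0661) and 71.8% of marked promoters (adjusted p = 1). In the whole region the share of members with a RUNX motif was 90.4% (1212 regions), and the motif nearest to the centre lay at a median of 47 bp from it.

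Motifs of other factors showed the same split. CCGGAA, the core bound by ETS proteins such as GABP, was present in 372 members (27.7%), compared to 15.3% of marked promoters (Fisher's exact test, adjusted p = 0.00042) and 35.4% of bidirectional promoters (adjusted p = 0.0661). The GC box GGGCGG, bound by Sp1, was present in 50.4% of members and 28.7% of marked promoters (adjusted exact p = 6.18e-08), and TGACG, the core of the CRE bound by the CREB and ATF family, in 25.7% and 12.9% (adjusted p = 0.000247). Of bidirectional promoters 52.8% held the GC box (adjusted exact p = 0.633) and 33.2% the CRE core (adjusted p = 0.0661). The AP-1 site TGACTCA was present in 2.01% of members and 3.83% of marked promoters, and CCAAT, the E-box CACGTG, the NRF1 site GCATGCGC, the YY1 site AAGATGG and the second ETS core CAGGAA did not pass the test in either comparison. All these differences from marked promoters lost the call among CpG-rich windows, where 0 of 28 tests passed. Of these windows, 942 were of members and 58 of marked promoters. TGTGGT (-5.51 points), TGCGGT (6.44 points) and the CRE core (3.31 points) kept their direction. There TGCGGC was present in 7.81 percentage points fewer members than marked promoters (adjusted exact p = 0.566), where all windows had given 12.4 points more. When H3K4me1-marked regions were widened by 1 kb, 1 of 28 tests passed, the one for TGTGGT.

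**Figure D2:**
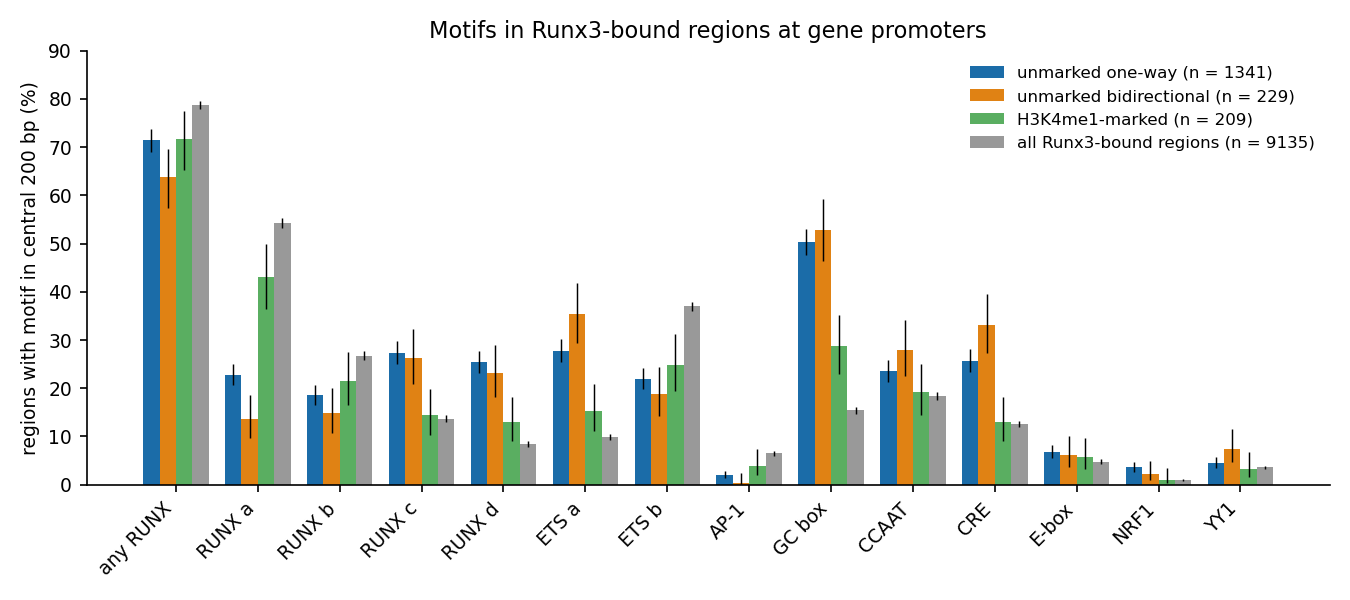
Share of Runx3-bound regions with each motif in the central 200 bp (vertical axis, percent) for unmarked one-way, unmarked bidirectional and H3K4me1-marked promoters and for all regions, with bars for the share and lines for 95% Wilson intervals. RUNX a stands for TGTGGT, RUNX b for TGTGGC, RUNX c for TGCGGT, RUNX d for TGCGGC, ETS a for CCGGAA and ETS b for CAGGAA. RUNX a is lower and RUNX c higher in unmarked one-way (22.7% and 27.4%) than in marked promoters (43.1% and 14.4%).

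Members were themselves of 2 kinds by CpG content, given here as a description because the windows were sorted by CpG. A CpG is part of the RUNX motifs TGCGGT and TGCGGC, and also of the ETS core CCGGAA and the GC box. The shares of these motifs therefore cannot be separated from the sorting. In the 942 CpG-rich members TGTGGT was present in 15.2%, CCGGAA in 33.1% and the GC box in 61.5%, and 20.6% had another Runx3 centre within 10 kb. In the 399 others TGTGGT was present in 40.6%, CCGGAA in 15.0% and the GC box in 24.3%, and 29.6% had such a neighbour. Any RUNX motif was present at nearly equal shares, 71.0% and 72.7%. The start was within 200 bp of the centre in 69.2% of CpG-rich members and 43.9% of the others.

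The number of RUNX motifs in the central 200 bp was 0 in 382 members, 1 in 579, 2 in 288, 3 in 75, 4 in 14 and 5 in 3. Members with 5 motifs included those at Cmpk2, a mitochondrial nucleotide kinase, and Fkbp1a, the binding protein of FK506. They were of different composition, since Cmpk2 held 2 TGTGGT and 3 TGTGGC, whereas Fkbp1a held 2 TGCGGT, 2 TGCGGC and 1 TGTGGC. Slmo2, a mitochondrial lipid transfer protein, held 4 with 2 TGTGGT, of which a pair overlaps in the sequence above, and Mtap7d1, a microtubule-associated protein, held 4 of 3 kinds. RUNX and an ETS core (CCGGAA or CAGGAA) occurred together in 429 members (32.0%), RUNX alone in 530, ETS alone in 172 and neither in 210. A RUNX motif and CCGGAA were separated by 0 to 50 bp in 177 members (13.2%). Their 261 pairs fell into 144 combinations of spacing and orientation, and no combination held more than 6 pairs.

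The 5 widest members were at Eed, a subunit of the Polycomb complex PRC2 (1462 bp), Tgfb1, the cytokine TGF-beta1 (1431 bp), Birc5, the mitotic survival protein survivin (1363 bp), Tnfaip8l2, a regulator of lymphocyte activation (1284 bp), and Usp28, a deubiquitinase (1238 bp). Over their whole width these regions held 8, 4, 8, 3 and 2 RUNX motifs, in the same order. The centre lay 382.5 bp downstream of the start at Eed and 846 bp downstream at Tgfb1, and 350 bp upstream at Birc5. H3K4me1 lay 152 bp upstream of the Birc5 region and 505 bp upstream of that of Tgfb1, whereas it was 21902 bp away at Eed on that side.

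To set members against promoters without Runx3, the fixed window from 250 bp before to 50 bp after the gene start was compared between the 1311 one-way starts with a member and 17503 one-way starts with no Runx3-bound region within 5 kb. TGCGGT was present in 19.2% of starts with a member and in 5.61% of the others (3.43 times, Fisher's exact test, adjusted p = 5.48e-58 over 14 motifs), TGCGGC in 24.9% and 12.3% (adjusted p = 9.76e-33), CCGGAA in 33.6% and 13.6% (adjusted p = 8.65e-68) and the GC box in 64.8% and 38.5% (adjusted p = 1.87e-75). TGTGGT differed less, with 18.9% and 15.6% (adjusted exact p = 0.00271). AP-1 was lower at starts with a member (2.75% compared to 4.88%, adjusted exact p = 0.000314), as was CAGGAA (26.0% compared to 29.3%, adjusted p = 0.0148), and CCAAT and the YY1 site did not pass the test. In all, 12 of 14 motifs passed.

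Restricted to CpG-rich windows, with 839 starts with a member and 5379 without Runx3, 7 of 14 motifs passed. TGCGGT was present in 22.4% and 9.67% (2.32 times, Fisher's exact test, adjusted p = 4.97e-22), TGTGGT in 15.1% and 8.37% (1.81 times, adjusted p = 1.46e-08), TGCGGC in 33.5% and 27.5% (adjusted p = 0.00107) and any RUNX motif in 67.3% and 50.2% (adjusted p = 6.1e-20). CCGGAA was present in 37.5% and 24.4% (adjusted exact p = 2.6e-14) and the CRE core in 41.1% and 33.5% (adjusted p = 5.67e-05). The GC box was present in 80.1% and 81.0% (adjusted exact p = 0.63), so that its difference in all windows was not seen among CpG-rich windows. AP-1 was present in 2.15% and 2.25%. By position, given without a test, CCGGAA was present at 12.5% of CpG-rich starts with a member and 7.81% without Runx3 in the 50 bp before the start, and at 10.3% and 6.41% in the 50 bp after it. TGTGGT was present at 4.05% and 1.36% between 100 and 50 bp upstream, at 2.86% and 0.669% in the 50 bp before the start and at 1.31% and 1.13% in the 50 bp after it. TGCGGT was present at 2.86% and 1.38%, at 4.65% and 1.54% and at 4.65% and 2.32% in the same bins.

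**Figure D3:**
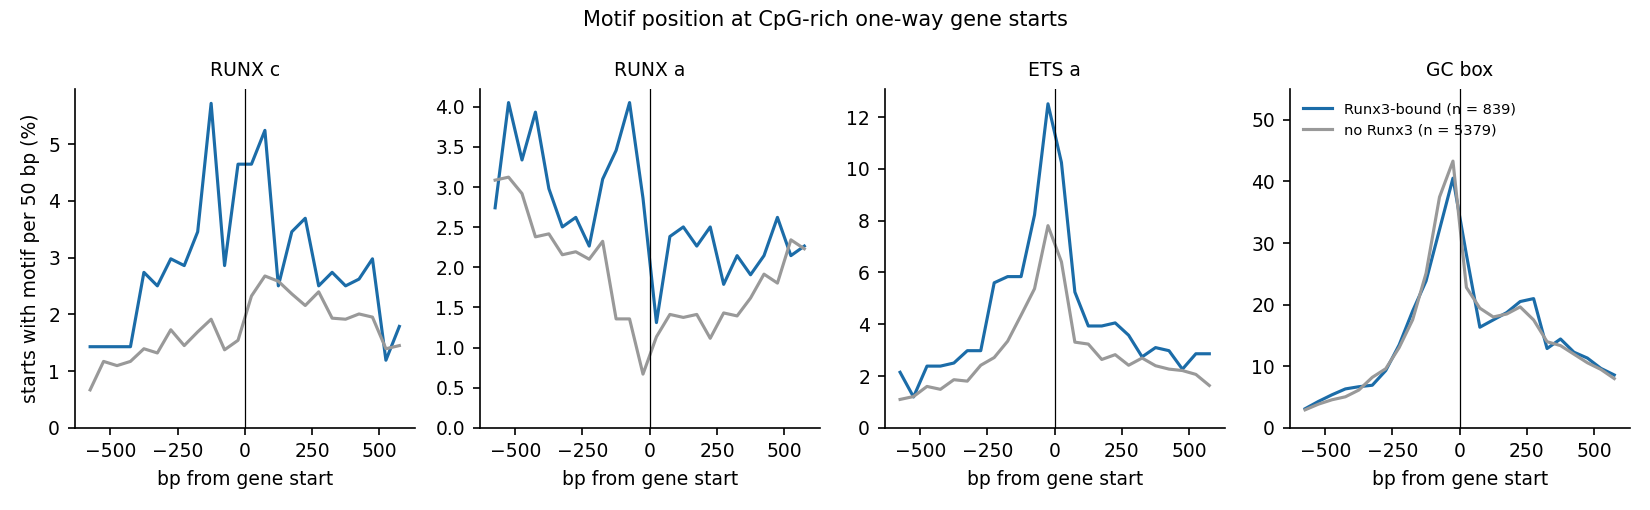
Share of CpG-rich one-way gene starts with a motif in each 50 bp bin (vertical axis, percent, scaled for each panel) by distance from the gene start in bp (horizontal axis) for TGCGGT (RUNX c), TGTGGT (RUNX a), CCGGAA (ETS a) and the GC box, at 839 starts with a member (blue) and 5379 without Runx3 within 5 kb (grey). Before the start CCGGAA reaches 12.5% and 7.81%, while the lines for the GC box run close together.

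A one-way promoter gives each motif a strand relative to the gene. Of the 1451 RUNX motifs in the central windows of members, 793 (54.7%, interval 52.1 to 57.2%) were on the strand of the gene (two-sided exact binomial test, adjusted p = 0.00345). TGCGGC lay on that strand in 57.0% (adjusted exact p = 0.0106) and CAGGAA in 42.4% (adjusted p = 0.0106), and the other RUNX variants and CCGGAA did not pass the test. With 1 motif per region, the one nearest to the centre, the share was 52.7% (exact binomial test, adjusted p = 0.17), and the call was lost. TGCGGC and CAGGAA also lost theirs in that setting, with 55.6% and 44.9% (exact binomial test, adjusted p = 0.152 and 0.17), and TGCGGC did so with a 100 bp window (adjusted p = 0.261). The sides of the start, examined after the data were seen, differed: upstream 342 motifs were on the strand of the gene and 376 on the other (47.6%, exact binomial test, p = 0.218), and downstream 451 and 282 (61.5%, p = 4.6e-10). Over the 300 bp on each side, starts without Runx3 gave 50.3% upstream and 58.7% downstream, compared to 45.8% and 62.2% at starts with a member (Fisher's exact test, p = 0.00438 upstream and 0.0131 downstream). An excess downstream was thus also present at promoters without Runx3.

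**Figure D4:**
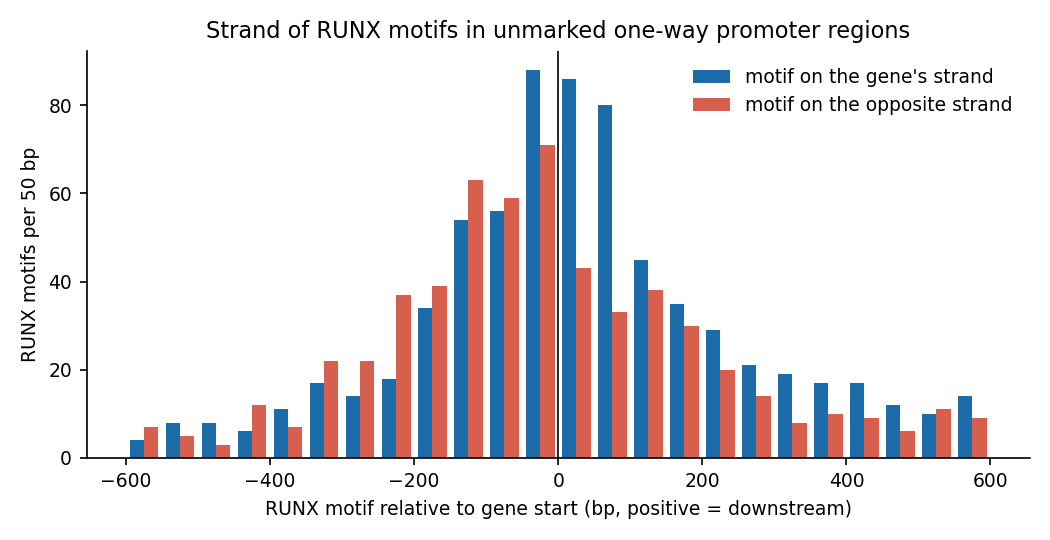
Number of RUNX motifs in the central 200 bp of members (vertical axis, motifs per 50 bp) by distance from the gene start in bp (horizontal axis, positive downstream), on the strand of the gene (blue) and on the opposite strand (red). Downstream of the start 451 motifs lie on the strand of the gene and 282 on the other, and upstream 342 and 376.

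Although members shared no base with H3K4me1, many lay near it. The nearest H3K4me1-marked region was a median of 15.2 kb away, and 484 members (36.1%) had one within 5 kb. The share was 9.42% among the 17178 one-way starts without Runx3 whose own position was unmarked. Those starts were chosen with no Runx3-bound region within 5 kb, whereas members could have further ones in that span. This choice enters the comparison, which is given as a description. Of these 484, the nearest mark was upstream of 209 members and downstream of 275 (56.8% downstream, two-sided exact binomial test, p = 0.00309), and starts without Runx3 leaned the same way (61.1% downstream). Within 2 kb the split was 160 and 187 (53.9%, exact binomial test, p = 0.163), compared to 63.1% downstream at starts without Runx3. Within 1 kb it was 129 and 109 (45.8%, exact binomial test, p = 0.218), compared to 59.2% at those starts. Within 0.5 kb, a distance added after the data were seen, 82 lay upstream and 52 downstream (38.8% downstream, exact binomial test, adjusted p = 0.0199 over 5 distances), compared to 50.9% at starts without Runx3. Near marks of this kind stood upstream of Ccr7 (258 bp), Cxcr3 (282 bp) and Gbp7 (184 bp) and downstream of Cdk4 (106 bp) and Rpl22 (198 bp).

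Gene lists were counted to describe which genes had members, against the 1320 of all 22350 protein-coding genes (5.91%) with a member, the 450 (2.01%) with a bidirectional and the 218 (0.975%) with a marked Runx3-bound region at the start. A further measure for lists of widely used genes is the 12.6% of 6656 CpG-rich one-way starts with a member. It leaves out other starts, whereas the share of a list is over all its genes, so the measures differ in their base. Of the 93 genes of 3 T cell lists (T cell receptor signalling, cytotoxic effector and identity genes, and the IL-2 receptor with JAK-STAT) 21 had a member (22.6%), 10 a marked (10.8%) and 1 a bidirectional region (1.08%). Of the 566 genes of 8 lists on gene expression and energy (ribosomal proteins of both kinds, proteasome, respiratory chain, tRNA synthetases, initiation factors, splicing and RNA polymerase with its cofactors), 67 had a member (11.8%), 5 a marked (0.883%) and 38 a bidirectional region (6.71%).

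Motifs at these lists were counted without a test. Of the 22 member regions at T cell genes, 12 held TGTGGT in the central window, 3 held TGCGGT, 3 held CCGGAA and 4 were CpG-rich. Of the 69 at genes of expression and energy, 17 held TGTGGT, 21 held TGCGGT, 25 held CCGGAA and 52 were CpG-rich. Among all 1341 members these numbers were 305, 367, 372 and 942.

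T cell receptor signalling had members at 9 of 33 genes. They included Rasgrp1, an activator of Ras downstream of the receptor (1029 bp wide), Ptpn22, a phosphatase that restrains receptor signals (798 bp), and Bcl10, an adaptor that links the receptor to NF-kB (669 bp). Ptpn22 held 2 TGTGGT in the central window, and the Bcl10 region held 0 RUNX motifs. Lck, Themis, Fyn, Icos and Lat also had one. Cytotoxic effector and identity genes had members at 7 of 33, the widest being Nkg7, a protein of cytotoxic granules (1001 bp), Cxcr3, a chemokine receptor of effector cells (865 bp), S1pr1, the receptor for exit from lymph nodes (569 bp), and Ccr7, a homing receptor (560 bp). The others were Klrd1, Gzmc and Klrk1, and 5 genes of the list had a marked region. The IL-2 receptor and JAK-STAT list had members at 5 of 27 (Socs1, Il2rg, Cish, Pik3cd and Stat2) and marked regions at 4. Il2rg, the common gamma chain, had its region centred 4.5 bp downstream of the start. Socs1 and Cish, inhibitors of cytokine signals, had theirs 160 and 657 bp downstream.

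Runx3 itself was 1 of 4 genes of the RUNX and CBF list with a member, a region of 1142 bp centred 293.5 bp upstream of the start that held 11 RUNX motifs over its width and 1 in the central window. Of 19 ETS genes, 3 had a member: Gabpb1, the beta subunit of GABP (1088 bp, 6 RUNX motifs over its width), Elk4 (785 bp) and Etv6 (521 bp). Of 18 genes of the AP-1, BATF and IRF list, 3 had one: Batf (585 bp), Irf9 (534 bp) and Batf3 (473 bp). Batf held 2 TGTGGT within the central window and Batf3 held 1. The NF-kB pathway had 5 of 21, including Nfkbia, the inhibitor IkB-alpha (1026 bp), Nfkb2, the precursor of p52 (712 bp), Map3k14, the kinase NIK (694 bp), and Traf2, an adaptor of TNF receptors (554 bp). Of 44 interferon-stimulated genes 3 had a member, Gbp7, Ifit3 and Gbp4, with a share of 6.82% near that of all genes.

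Genes of DNA replication had members at 9 of 47 (19.1%), led in width by Pcna, the sliding clamp (1012 bp), Rfc4, of the clamp loader (883 bp), and Pold3 and Pold1, subunits of DNA polymerase delta (866 and 545 bp). Members at 4 of 22 genes of mitosis and spindle were Birc5, Kif11, a spindle motor (774 bp), Incenp, a scaffold of the Aurora B complex (771 bp), and Ndc80, of the kinetochore (429 bp). Of these 4, 3 held CCGGAA in the central window, compared to 27.7% of all members. Of the 10 regions at cyclins, CDKs and E2F genes, 1 did. Of 62 cyclins, CDKs and E2F genes, 10 had one, with Cdk4 (1075 bp) and Ccnd2, cyclin D2 (816 bp), the widest. This list was taken by symbol and also caught Cdkn2aip and Cdk5rap2, which are no kinases. DNA repair had 8 of 66 (12.1%), among them Rad23b (928 bp) and Msh6, a mismatch recognition protein (857 bp). Nuclear pore and transport had 11 of 52 (21.2%), including Xpo1, the main nuclear export receptor (816 bp), and the pore proteins Nup107 (645 bp) and Nup50 (606 bp). Apoptosis had 5 of 24: Birc3 and Mcl1, which oppose cell death, and Bax, Casp2 and Fas, which promote it.

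Lists of gene expression varied among themselves. Spliceosome and splicing factors had members at 13 of 77 genes (16.9%), including Srsf1 (892 bp) and Srsf3 (722 bp), which bind exonic RNA, initiation factors at 9 of 57 (15.8%), including Eif3g (594 bp) and, caught by symbol, Eif2c3, an Argonaute protein, and cytosolic ribosomal proteins at 13 of 85 (15.3%), including Rpl19 (703 bp), Rpl37 (678 bp) and Rpl22 (612 bp). RNA polymerase, Mediator and TFIID had 13 of 96 (13.5%), including Polr2j (679 bp), Med4 (655 bp) and, caught by symbol, Gtf2ird2. In the central window 8 of the 14 regions of this list held CCGGAA, compared to 27.7% of all members. Among the 9 regions at initiation factors, 1 did. Proteasome subunits had 5 of 50, the widest at Psmb8, a subunit of the immunoproteasome (795 bp). Near or below the share of all genes were mitochondrial ribosomal proteins with 5 of 77 (6.49%), which had a bidirectional region at 9 genes, chaperones with 6 of 92 (6.52%), tRNA synthetases with 2 of 37 (5.41%, Wars2 and Tars2, both mitochondrial) and vesicle coats and sorting with 6 of 147 (4.08%), which still included Sec31a, of the COPII coat, with 3 CCGGAA in its central window.

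Chromatin modifiers and remodellers had members at 18 of 102 genes (17.6%), the widest at Arid5a (672 bp) and Arid1b, of the BAF complex (578 bp). Ubiquitin conjugation and removal had 20 of 177 (11.3%), led by Usp28 and by Usp22, of the SAGA complex (972 bp), and Zfp genes 26 of 367 (7.08%), led by Zfp637 (730 bp) and also counting Zfp36 and Zfp36l1, RNA-binding proteins caught by symbol. Glycolysis and the TCA cycle had 5 of 30 (16.7%), including Slc2a1, the glucose transporter Glut1 (722 bp, 1 TGTGGT and 1 TGTGGC), and Pkm2, pyruvate kinase (692 bp, with H3K4me1 118 bp upstream). Mitochondrial import and dynamics had 5 of 30 (16.7%), including Timm22 and Opa1, a fusion protein of the inner membrane (564 bp), Rab GTPases 9 of 67 (13.4%), including Rab8a (1097 bp) and, caught by symbol, Rab11fip1, which is no GTPase, mRNA decay and processing 9 of 67 (13.4%), including Cnot4 (746 bp), the respiratory chain with ATP synthase 7 of 87 (8.05%), including Ndufs7 (931 bp) and, caught by symbol, Atp5sl, and autophagy and lysosome 4 of 55 (7.27%), Atg5, Atg4d, Atg7 and Atp6v0c. The lists were not tested, and many of their genes have CpG-rich starts, whose part in these shares was not tested.

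**Figure D5:**
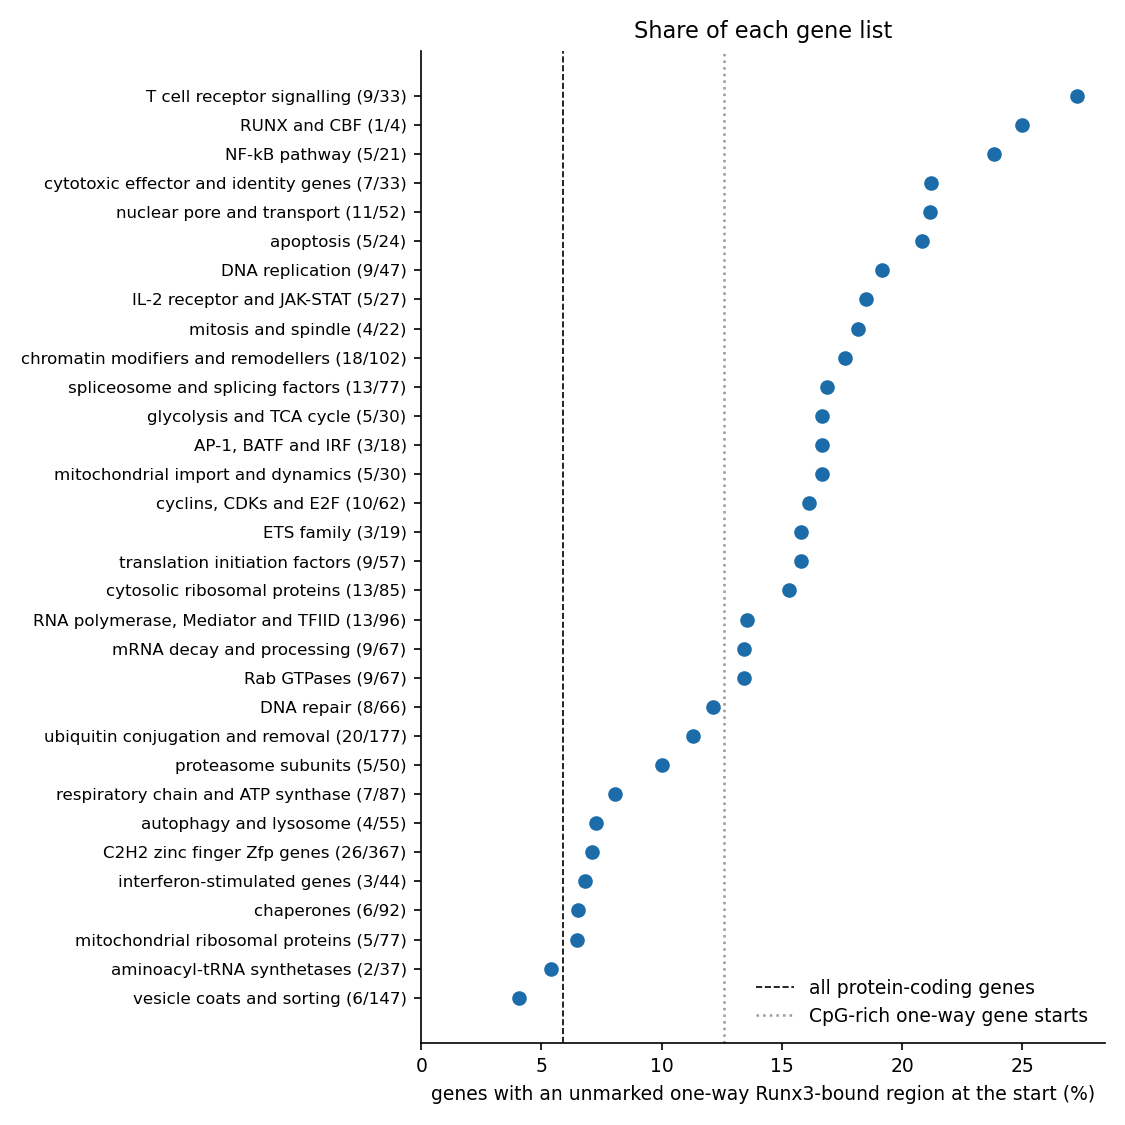
Share of each gene list with an unmarked one-way Runx3-bound region at the gene start (horizontal axis, percent), with the number of genes with a member and of all genes of the list in brackets. The dashed line is the share of all protein-coding genes (5.91%) and the dotted line that of CpG-rich one-way starts (12.6%), and T cell receptor signalling is highest with 9 of 33.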

How the data were processed

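Runx3-bound and H3K4me1-marked regions were taken from the peak lists of IL-2-activated CD8-TC. The authors used ELAND for alignment to mm9 and called MACS peaks once for each antibody. Repeats were merged beforehand, NIS libraries served as background, and depth was equalised downwards. The deposited lists hold start and end positions in bp and 0 scores or read numbers. Regions called in 1 repeat cannot be told from those called in both, and unique alignment leaves out repeated sequence.

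The members and the gene lists were chosen with earlier results of these data known. Centres were measured to gene starts of GENCODE vM1 on NCBIM37 (mm9), coordinates count from 1, and overlap required 1 bp. Motifs were searched on both strands as exact words. Shares of regions or starts were compared by two-sided Fisher's exact tests and sides or strands by two-sided exact binomial tests, with Benjamini-Hochberg adjustment within each family and a threshold of 0.05. Neighbouring regions and nearby motifs are not independent. Named genes were the 5 widest members, the 5 with the most RUNX motifs, the 4 widest of each gene list (all where there were 4 or fewer) and those at the limits of the rule. Other genes of short lists, and those given as examples of near marks, were named after their values were seen. Printed sequences came from these members, and some of the named genes are not reported here. The split of members by CpG, the grouping of gene lists, RUNX strand by side of the start and the flanks of starts without Runx3 were added after the data were seen. Python 3.11.15, SciPy 1.17.1, NumPy 2.4.6 and pysam 0.24.0 were used, and the functions were tested on simulated data.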

Additional observations from a re-analysis of the deposited data

How the results depend on the processing

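No paired analysis was possible because the peaks were called once per antibody on joined libraries, and for the same reason no library could be left out. Of 28 motif tests 7 passed as reported. The number was 12 with a central window of 400 bp, 13 with the whole region, 13 when H3K4me1 had to cover at least 50% of the region, 13 with every transcript start, 3 among regions of at least median width, 1 with H3K4me1 widened by 1 kb and 0 among CpG-rich windows. In the last setting the differences of members from marked promoters reversed for TGCGGC (-7.81 points), CCGGAA (-1.36 points) and the GC box (-0.604 points), none past the test. They kept their direction for TGTGGT (-5.51 points), TGCGGT (6.44 points) and the CRE core (3.31 points), also none past the test. The cause was not tested. With a 100 bp window TGTGGT against bidirectional promoters (4.97 points) and TGCGGC against marked promoters (4.3 points) lost the call, and with a 400 bp window CAGGAA on the gene's strand did (45.7%). The 12 of 14 motifs that separated starts with and without Runx3 became 7 among CpG-rich windows, where the GC box reversed (-0.886 points). The share of RUNX motifs on the strand of the gene (54.7%) was 52.7% with 1 motif per region, and that of H3K4me1 downstream (56.8%) was 53.9% within 2 kb, both no longer past the test. Of the 192 values recomputed, 149 kept their direction and side of the threshold or stayed within 1.5 times, 23 lost the call, 8 gained it, 8 counts moved by over 1.5 times and 4 reversed. Some of the 149 could not change, because the setting did not enter them. A longer neighbour distance, for example, left the other shares of context as they were. Read depth, not analysed here, affects how many regions each class holds, and a region just under the peak caller's threshold counts as unbound or unmarked.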
